A study of Homo sapiens with 6 samples.

Results

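The Hedgehog receptors and GLI factors described here are 9 of the 23346 genes counted in BT549, a breast cancer line of mesenchymal character: the receptors PTCH1 and HHIP, the co-receptors GAS1 and BOC, the transducer SMO, the inhibitor SUFU, and the transcription factors GLI1, GLI2 and GLI3. They were taken by symbol, and they were chosen by name with earlier results of this same comparison known. Their differences between the groups are therefore a description and carry no test of their own. RNA was sequenced from 3 libraries of cells transfected with NC siRNA, a negative control, and from 3 of cells given BNC2 siRNA, which is 3 siRNAs in equal parts against the zinc finger protein basonuclin-2 (BNC2). In both groups the siRNA was given at 20 nM, the cells carried no engineered change according to their WT genotype label, and RNA was prepared 6 d after transfection. The methods call the 3 libraries of a group biological replicates. The knockdown is transient, and since the siRNAs were mixed, no value belongs to a single siRNA.

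Hedgehog ligands bind PTCH1, which in their absence keeps SMO inactive. The co-receptors GAS1, BOC and CDON present ligand to PTCH1, and HHIP binds ligand and takes it away from the receptor. Active SMO works in the primary cilium, where it frees the GLI proteins from SUFU. GLI2 and GLI3 can then act as activators, whereas without signal they are cut into repressors, a form for which GLI3 is best known. GLI1, PTCH1 and HHIP are themselves classical targets of GLI proteins, so their RNA is often used to read the activity of the pathway. In breast tissue, Hedgehog signalling is mostly described between epithelium and stroma.

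Promoter sequences are shown for the receptors and co-receptors that differed between the groups, because these genes meet ligand at the cell surface and moved in opposite directions. The RefSeq table of promoter windows (GRCh38.p14, 250 bases before to 50 after a start) held 7 of the 9 genes in 13 windows, of which PTCH1 had 5, and GLI1 and GLI3 had no entry. Both strands were searched for the GLI consensus GACCACCCA (reverse complement TGGGTGGTC), its core CCACCCA, the GC box GGGCGG and the CCAAT box. The consensus, which always holds the core, was found in 1 of the 13 windows, a PTCH1 promoter, and in 0.236% of all 35116 windows. The core was found in 2 of the 13, 1 of PTCH1 and 1 of GLI2, and in 9.19% of all windows. The GC box was found in 7 of the 13 windows and in 45.0% of all. The CCAAT box was found in 4 of the 13 and in 34.6% of all. Such a match is a description of the letters and not a binding site. The 250 bases before the start follow, 5′ to 3′ on the strand of the gene. Of the 5 PTCH1 windows, only the window with the consensus is shown. For BOC the window with a GC box is shown, and another, with neither a GC box nor a CCAAT box, is not. Capitals mark the consensus in PTCH1 (chr9:95509267-95509516, minus strand, beginning 172 bases before the start), the 3 GC boxes in HHIP (chr4:144645906-144646155, plus strand), the CCAAT box in GAS1 (chr9:86947507-86947756, minus strand) and the GC box in BOC (chr3:113211866-113212115, plus strand). The PTCH1 window also held a CCAAT box 89 bases and a GC box 48 bases before the start, which are left in small letters.
PTCH1: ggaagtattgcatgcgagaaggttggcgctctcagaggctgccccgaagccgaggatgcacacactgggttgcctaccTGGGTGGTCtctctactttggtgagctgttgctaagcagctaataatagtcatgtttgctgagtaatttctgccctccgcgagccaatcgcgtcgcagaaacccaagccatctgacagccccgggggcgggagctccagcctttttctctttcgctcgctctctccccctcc
HHIP: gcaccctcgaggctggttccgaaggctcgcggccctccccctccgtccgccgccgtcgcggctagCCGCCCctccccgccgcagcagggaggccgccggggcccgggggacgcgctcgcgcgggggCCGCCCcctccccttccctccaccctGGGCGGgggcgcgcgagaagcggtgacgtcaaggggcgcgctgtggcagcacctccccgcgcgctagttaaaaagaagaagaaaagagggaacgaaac
GAS1: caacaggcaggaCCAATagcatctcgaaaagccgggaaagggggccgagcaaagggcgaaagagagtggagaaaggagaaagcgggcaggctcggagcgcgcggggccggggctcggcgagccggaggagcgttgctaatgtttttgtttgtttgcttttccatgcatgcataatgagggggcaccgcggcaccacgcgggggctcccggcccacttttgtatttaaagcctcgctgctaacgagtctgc
BOC: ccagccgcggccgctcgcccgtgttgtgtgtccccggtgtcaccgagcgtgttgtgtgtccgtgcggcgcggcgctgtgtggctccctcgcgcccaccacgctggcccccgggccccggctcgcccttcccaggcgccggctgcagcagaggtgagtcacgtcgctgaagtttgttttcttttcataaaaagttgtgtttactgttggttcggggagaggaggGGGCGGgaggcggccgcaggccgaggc

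The libraries held 16093978 to 18246254 counts assigned to genes. BNC2 (GRCh37 chr9:16409501-16870841, minus strand) was at 65.6, 51.4 and 58.5 CPM (counts scaled to the size of the library, with TMM normalisation) in the NC siRNA libraries and at 35.4, 36.5 and 41.5 CPM in the BNC2 siRNA libraries. The groups did not overlap, and BNC2 RNA was left at 64.6% of its control level (log2 fold change -0.63, standard error 0.09, adjusted p = 8.2e-06, edgeR's quasi-likelihood test). The mesenchymal identity on the labels was checked on marker lists. All 8 mesenchymal markers had a mean over 1 CPM across the 6 libraries, with summed levels of 4380 to 4460 CPM in NC siRNA and 5250 to 5480 CPM in BNC2 siRNA libraries. Most of the sum is VIM, and the markers did not move as one: VIM, FN1, CDH2, ZEB1, SNAI2 and TWIST1 were called higher (log2 fold changes 0.18 to 1.54), ZEB2 lower (98.8 to 42.5 CPM, log2 fold change -1.22) and PRRX1 not (log2 fold change -0.04). None of 8 epithelial markers had a mean over 1 CPM across the 6 libraries (0.601 to 1.18 CPM and 0.988 to 1.35 CPM in sum), and EPCAM and ESRP1 were at 0 in all libraries. ESRP2 had 8, 7 and 2 counts with NC siRNA and 13, 23 and 17 with BNC2 siRNA, where its mean was 1.04 CPM, and its groups did not overlap. CLDN4 (5, 2 and 4 counts with NC siRNA, 0 in each BNC2 siRNA library) and KRT19 (3, 5 and 2 against 1, 0 and 0) were lower without overlap, and CRB3 (2, 7 and 1 against 2, 0 and 0) overlapped. Of 5 haematopoietic markers only CD14 had a mean over 1 CPM across the 6 libraries (list sums 1.9 to 2.31 CPM and 0.872 to 1.02 CPM). CD14 had 36, 30 and 23 counts with NC siRNA and 12, 9 and 11 with BNC2 siRNA, without overlap (log2 fold change -1.42). It passed the filter only through the NC siRNA libraries, where it was higher. Nothing is therefore read from its call as lower (adjusted p = 0.00052, edgeR). None of 4 endothelial markers had a mean over 1 CPM (list sums 0.301 to 0.671 CPM and 0 to 0.639 CPM, CDH5 at 0), and VWF, with 3, 6 and 4 counts against 0 in each BNC2 siRNA library, was lower without overlap. The part of these markers in the results below was not tested.

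Across the table, 8 of the 9 genes had more than 1 CPM in at least 3 libraries and were tested, and GLI2 was not. All 8 passed this filter in each of the 6 libraries. PTCH1, GAS1, BOC and GLI3 were called higher after BNC2 knockdown and HHIP and GLI1 lower, with 0.05 as the limit of the p-value adjusted over all genes. SMO and SUFU were not called. Of all 12186 genes tested, 72.9% were called, 36.6% of them as higher and 36.2% as lower, where both shares are of the genes tested. The 6 called genes also had groups that did not overlap, as did 74.9% of all genes tested. Since the genes were chosen with this comparison known, nothing is read from these counts. The median log2 fold change of the 8 tested genes was 0.2, against 0 over all genes tested. The median of its absolute size was 0.66, against 0.44. For the same reason nothing is read from these medians. In RNA of a whole culture, fewer cells expressing a gene and less RNA per cell cannot be told apart.

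The receptors that bind ligand differed in direction, with HHIP lower and PTCH1 higher after BNC2 knockdown. HHIP, the decoy that sequesters ligand (GRCh37 chr4:145567308-145666423, plus strand), was at 4.84, 4.48 and 4.81 CPM in NC siRNA libraries and at 1.51, 1.69 and 2.23 CPM in BNC2 siRNA libraries. Every NC siRNA library lay above every BNC2 siRNA library, and the latter differed among themselves by a coefficient of variation of 20.6%. The mean went from 4.71 ± 0.202 to 1.81 ± 0.372 CPM (SD, n = 3), which left 38.3% of the control level (log2 fold change -1.38, standard error 0.19). These values rest on 246 and 91 reads in all, and the long HHIP gene overlaps the exons of HHIP-AS1 on the opposite strand. At most 4 reads per library were counted for HHIP on the opposite strand.

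PTCH1, the receptor that holds SMO in check (GRCh37 chr9:98205262-98279339, minus strand), was at 18.3, 17.3 and 15.8 CPM with NC siRNA and at 20.6, 22.5 and 21.8 CPM with BNC2 siRNA. The highest control library stayed below the lowest knockdown library, with a smaller gap than for the other called genes of the set that were higher. The mean went from 17.1 ± 1.28 to 21.7 ± 0.968 CPM (SD, n = 3), a 1.26-fold difference (log2 fold change 0.34, standard error 0.09). The absolute size of this change exceeded that of 39.8% of all genes tested, against 90.4% for HHIP. PTCH1 is thus the called gene of the set whose change was smallest.

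Both co-receptors in the set were higher after BNC2 knockdown, and they had the largest rises among the 9 genes. GAS1, a protein anchored in the outer membrane that binds ligand together with PTCH1 (GRCh37 chr9:89559277-89562421, minus strand), was at 17.6, 18.7 and 15.5 CPM in NC siRNA libraries and at 46.9, 48.1 and 49.7 CPM in BNC2 siRNA libraries. The knockdown libraries lay close together, far above the controls. The mean went from 17.3 ± 1.61 to 48.2 ± 1.43 CPM (SD, n = 3), which is 2.79-fold (log2 fold change 1.48, standard error 0.08). BOC, a cell surface protein of the immunoglobulin superfamily (GRCh37 chr3:112929850-113006306, plus strand), was at 2.64, 2.18 and 2.71 CPM in NC siRNA libraries and at 9.06, 8.96 and 9.99 CPM in BNC2 siRNA libraries. Here too the groups were well separated. The mean went from 2.51 ± 0.286 to 9.34 ± 0.564 CPM (SD, n = 3), a 3.71-fold rise and the largest change of the set (log2 fold change 1.89, standard error 0.15), on 131 and 472 reads. BOC's exons overlap those of CFAP44 on the opposite strand, where 2 to 10 reads per library were counted.

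CDON, the close relative of BOC and not one of the 9 genes, moved the other way. It was at 25.2, 21.2 and 22.6 CPM in NC siRNA libraries and at 8.48, 8.12 and 9.6 CPM in BNC2 siRNA libraries, with no overlap. Its mean was left at 38% of the control level (log2 fold change -1.4, standard error 0.11, adjusted p = 5.5e-09, edgeR). To set the 3 co-receptors side by side, CPM were divided by the length of the merged exons in kilobases. On this scale GAS1 went from 5.49 ± 0.511 to 15.3 ± 0.455, CDON from 1.15 ± 0.103 to 0.438 ± 0.0389 and BOC from 0.243 ± 0.0277 to 0.904 ± 0.0546 CPM per kilobase (SD, n = 3). CDON was above BOC in every NC siRNA library and below it in every BNC2 siRNA library. The summed level of the 3 went from 6.88 ± 0.484 to 16.7 ± 0.536 CPM per kilobase. GAS1 made up 79.6% ± 2.38 of that sum with NC siRNA and 92.0% ± 0.347 with BNC2 siRNA, and CDON's share went from 16.8% ± 1.81 to 2.63% ± 0.166 (SD, n = 3). With the longest transcript as the length, CDON's share went from 29.8% ± 2.63 to 5.33% ± 0.321 and that of GAS1 from 65.0% ± 3.34 to 85.6% ± 0.594, with CDON and BOC in the same order as before in each library.

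SMO and SUFU, which stand between the receptors and the GLI factors, were not called. SMO, the transducer that PTCH1 inhibits (GRCh37 chr7:128828474-128853386, plus strand), was at 17.4, 19.2 and 19.4 CPM with NC siRNA and at 17.8, 18.9 and 18.6 CPM with BNC2 siRNA. The knockdown libraries fell within the range of the controls. Its log2 fold change was -0.02, with a 95% confidence interval of -0.21 to 0.17. SUFU, which binds GLI proteins and holds them in the cytoplasm (GRCh37 chr10:104263729-104393292, plus strand), was at 15.4, 20 and 14.6 CPM with NC siRNA and at 18.3, 16 and 17.7 CPM with BNC2 siRNA. The second NC siRNA library was the highest of all 6, the other NC siRNA libraries were the lowest, and the groups overlapped. SUFU's log2 fold change was 0.05, with a 95% confidence interval of -0.19 to 0.30, and its control libraries had a coefficient of variation of 17.5%. Leaving out the second NC siRNA library put its change at 0.19 on the log2 scale, and leaving out the first or the third put it at -0.03 or -0.05.

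Of the GLI factors, GLI1 was lower, GLI3 was higher and GLI2 was hardly detected. GLI1, an activator without a repressor form (GRCh37 chr12:57853568-57866051, plus strand), was at 4.33, 5.15 and 4.57 CPM in NC siRNA libraries and at 2.85, 3.61 and 2.35 CPM in BNC2 siRNA libraries. All controls were above all knockdown libraries, though the latter spread with a coefficient of variation of 21.5%. The mean went from 4.68 ± 0.419 to 2.94 ± 0.632 CPM (SD, n = 3), or 63.1% of the control level (log2 fold change -0.66, standard error 0.19), on 245 and 150 reads. GLI1 shares its last 5 exon bases, of 4560, with ARHGAP9 (GRCh37 chr12:57866047-57882597, minus strand), which had 2, 2 and 0 counts with NC siRNA and 167, 138 and 118 with BNC2 siRNA. ARHGAP9 was named after its values were seen. For GLI1 itself, 5, 2 and 0 reads were counted on the opposite strand with NC siRNA and 3, 2 and 0 with BNC2 siRNA.

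GLI3, the main source of the repressor form (GRCh37 chr7:42000547-42303699, minus strand), was at 24.9, 22.3 and 24.2 CPM in NC siRNA libraries and at 35.1, 39.6 and 38.2 CPM in BNC2 siRNA libraries. The groups were clear of each other. The mean went from 23.8 ± 1.35 to 37.6 ± 2.29 CPM (SD, n = 3), a 1.58-fold difference (log2 fold change 0.66, standard error 0.08). RNA does not tell whether GLI3 protein was in its full or its repressor form. GLI2, often the main activator (GRCh37 chr2:121493199-121750229, plus strand), had 0, 0 and 3 counts with NC siRNA and 3, 0 and 1 with BNC2 siRNA. At this depth no difference in GLI2 could be detected, since each library lay at or below the 3 counts that a count of 0 allows, and this limit covers counting error only.

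**Figure D1:**
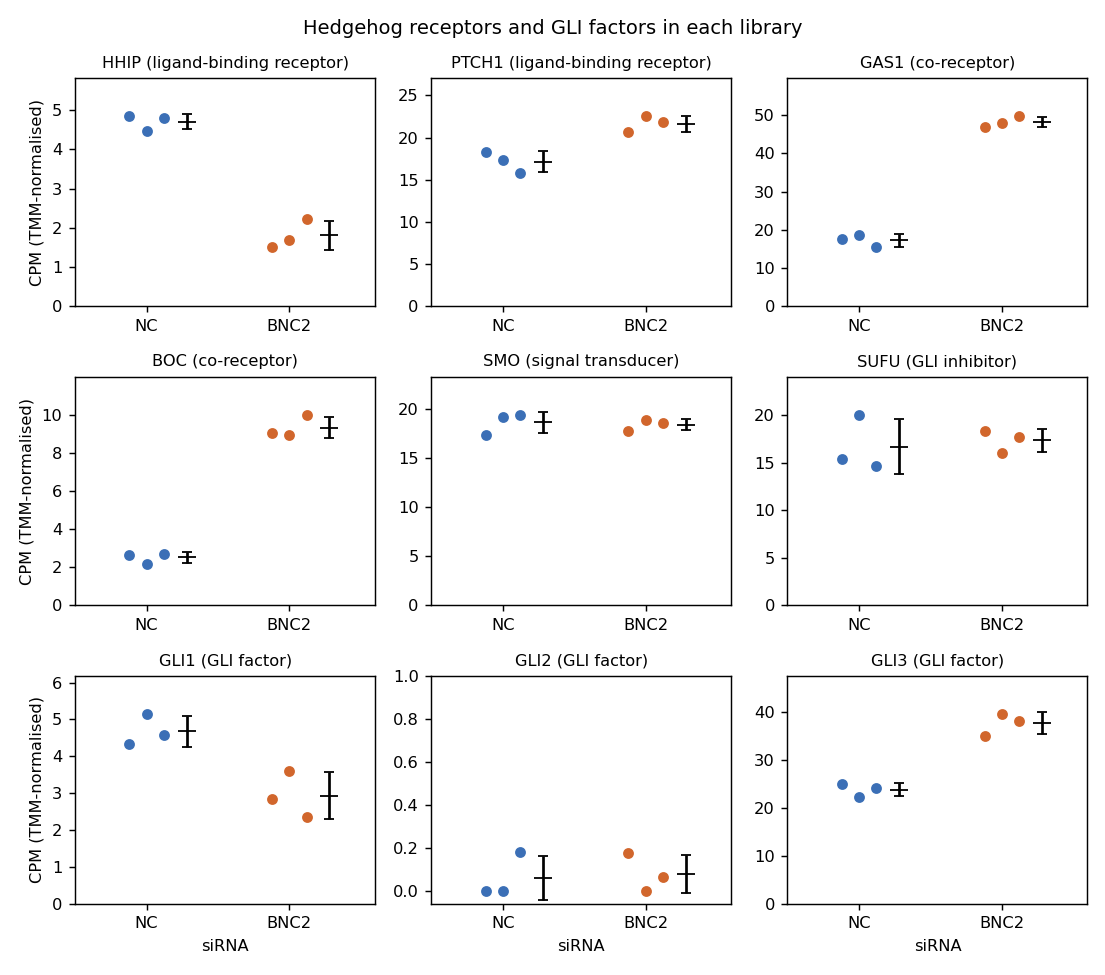
TMM-normalised CPM of each of the 9 genes (vertical axes from 0, except for a margin below 0 for GLI2) in the 3 NC siRNA libraries (blue) and the 3 BNC2 siRNA libraries (orange), with the mean and SD in black. HHIP and GLI1 sit lower and PTCH1, GAS1, BOC and GLI3 higher with BNC2 siRNA without overlap, SMO and SUFU overlap, and GLI2 stays at 3 counts or fewer per library.

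Levels of different genes were compared only per kilobase of merged exon. With NC siRNA, GAS1 was the most abundant of the 9 (5.49 CPM per kilobase), followed by SMO (3.93), SUFU (2.43), GLI3 (1.73), GLI1 (1.03), PTCH1 (0.991), HHIP (0.394), BOC (0.243) and GLI2 (0.00779 CPM per kilobase). The only neighbours in this order whose libraries overlapped were GLI1 and PTCH1. With BNC2 siRNA, GAS1 (15.3 CPM per kilobase) and SMO (3.88) were still first, followed by GLI3 (2.73), SUFU (2.52), PTCH1 (1.25), BOC (0.904), GLI1 (0.644), HHIP (0.152) and GLI2 (0.0103 CPM per kilobase), and GLI3 and SUFU overlapped. BOC thus passed both GLI1 and HHIP, and PTCH1 came to lie above GLI1. These levels depend on the length. With the longest transcript in its place, the NC siRNA levels of BOC, GLI3 and PTCH1 were 0.437, 2.84 and 1.61 CPM per kilobase, and PTCH1 was also above GLI1 (1.18). On that length SUFU overlapped GLI3 and HHIP overlapped BOC with NC siRNA, SMO overlapped GLI3 with BNC2 siRNA, and neither pair that overlapped on merged exons did.

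Within the GLI factors, the balance shifted from GLI1 towards GLI3. GLI3 made up 65.5%, 58.9% and 63.1% of the summed GLI level per kilobase in NC siRNA libraries and 79.7%, 78.4% and 84.1% in BNC2 siRNA libraries. The shares did not overlap, with means of 62.5% ± 3.36 and 80.7% ± 2.98 (SD, n = 3). GLI1 took nearly all of the rest, 37.2% ± 3.47 and 19.0% ± 3.03, and GLI2 0.28% ± 0.485 and 0.319% ± 0.359.

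**Figure D2:**
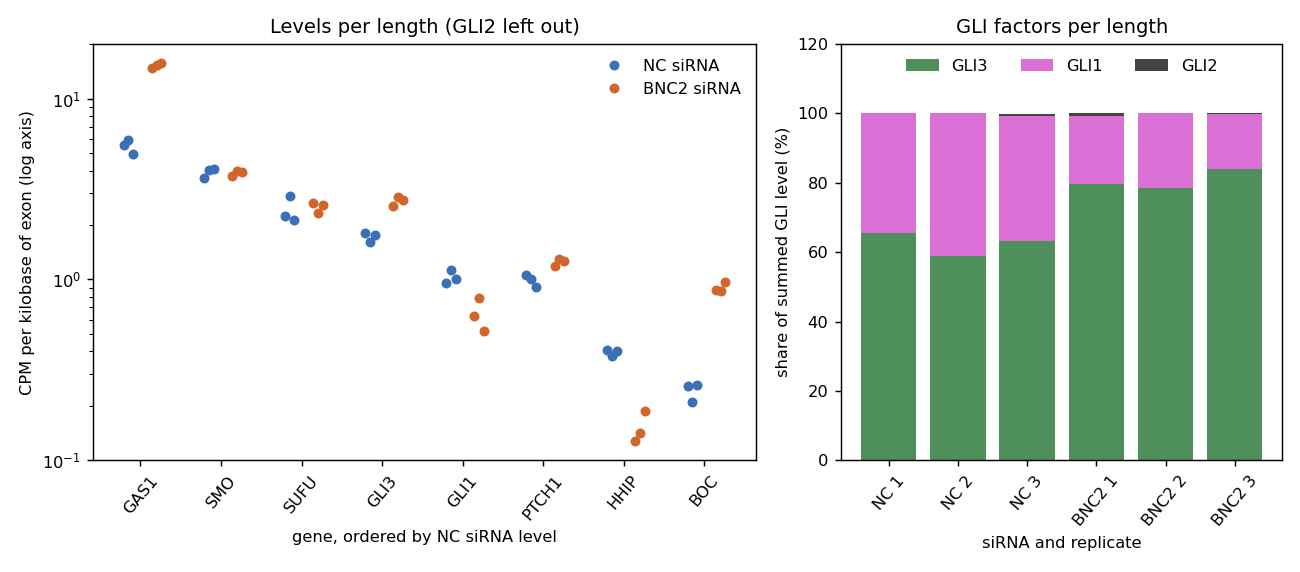
Left, CPM per kilobase of merged exon on a log axis for 8 of the genes, ordered by their NC siRNA level, with a point for each NC siRNA (blue) and BNC2 siRNA (orange) library. Right, the share of each GLI factor in their summed level per kilobase in each library: GLI3 holds 58.9% to 65.5% with NC siRNA and 78.4% to 84.1% with BNC2 siRNA.

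Other genes of the pathway were followed in 5 lists with 74 genes, written with earlier results of these data known. Of these, 58 were tested, 19 were called higher, 20 lower and 19 were not called. At 67.2%, the share called was near the 72.9% of all genes tested, and the median log2 fold change was 0.02, against 0. Among 9 ligands and genes for their release, 5 were tested, and 2 were higher and 1 lower (60% called, median log2 fold change 0.01). The ligands themselves were hardly detected, with 2, 7 and 6 counts of SHH, 2, 1 and 1 of IHH and none of DHH in the NC siRNA libraries, and 1, 1 and 1 of SHH, 3, 1 and 2 of IHH and 0, 0 and 3 of DHH in the BNC2 siRNA libraries. HHAT, which attaches palmitate to the ligands, rose by 0.75 on the log2 scale, from 3.12 ± 0.676 to 5.23 ± 0.595 CPM (SD, n = 3; standard error of the log2 value 0.18, adjusted p = 0.0016). SCUBE3, of a secreted family that helps to release ligand, rose by 0.74, from 7.92 ± 1.51 to 13.3 ± 1.04 CPM (standard error 0.14, adjusted p = 0.00011). Its relative SCUBE2 was called lower (log2 fold change -0.92, standard error 0.40, adjusted p = 0.048), but its groups overlapped, it passed the filter only through the NC siRNA libraries, and the call was lost without the first or the second BNC2 siRNA library (adjusted p = 0.058 and 0.25).

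Of 5 other receptors and co-receptors, only CDON, described above, was tested, and the other 4 stayed below the filter.

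The cilium and the steps from SMO to GLI were covered by 24 genes, all of them tested, of which 8 were higher and 11 lower (median log2 fold change 0). The share called was 79.2%, against 72.9% of all genes tested. KIF3A, a motor subunit of the transport that builds cilia, fell from 88.3 ± 6.77 to 31.7 ± 1.81 CPM (SD, n = 3; log2 fold change -1.48, adjusted p = 3.1e-11). ARRB2, a β-arrestin linked to the movement of SMO into the cilium, fell from 77.5 ± 1.73 to 27.1 ± 2.34 CPM (log2 fold change -1.51, adjusted p = 2e-11). INTU, a planar polarity effector needed for cilia, rose from 2.43 ± 0.157 to 5.26 ± 0.36 CPM (log2 fold change 1.11, adjusted p = 1.8e-05). The following were named after their values were seen. KIF7, the kinesin of the ciliary tip that organises GLI and SUFU, fell from 28.3 ± 3.07 to 13.7 ± 0.934 CPM (log2 fold change -1.05, adjusted p = 8.2e-08). GPR161 and RAB23, which hold the pathway back in the cilium, rose by 0.63 and 0.76 on the log2 scale (adjusted p = 2.3e-05 and 1.3e-06). The kinase genes STK36 and DYRK2 rose by 0.77 and 1.00 (adjusted p = 8.7e-07 and 2.9e-09). TULP3, also of this list, was called lower (log2 fold change -0.21, adjusted p = 0.0045). DYNC2H1 was called higher (log2 fold change 0.80, adjusted p = 3.9e-07). IFT80 was called lower with groups that overlapped (log2 fold change -0.25, adjusted p = 0.022). IFT88 and IFT172 were not called (log2 fold changes -0.02 and 0.14). The genes of this list thus differed in direction.

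Kinases and genes for the degradation of pathway proteins were 15, all tested, with 5 higher, 3 lower and 7 not called (median log2 fold change 0.06). The share called, 53.3%, was below the 72.9% of all genes tested. SPOP, the adaptor that hands GLI proteins to a CUL3 ubiquitin ligase, rose from 42.8 ± 1.98 to 80.7 ± 2.16 CPM (SD, n = 3; log2 fold change 0.91, adjusted p = 2.1e-09). BTRC, the F-box protein that takes part in the processing of GLI3, fell from 39.9 ± 0.389 to 26.4 ± 3.43 CPM (log2 fold change -0.60, adjusted p = 1.4e-05). Of genes named after their values were seen, ITCH and NUMB, which act together in the degradation of GLI1, differed in direction, with log2 fold changes of 0.53 and -0.49 (adjusted p = 7.9e-07 and 7.4e-07). GSK3B and PRKACA, kinases that mark GLI3 for processing, rose by 0.41 and 0.21 on the log2 scale (adjusted p = 0.00018 and 0.0033). PRKACA was not called with total counts as the only scaling (log2 fold change 0.13, adjusted p = 0.051). The kinase genes PRKACB, CSNK1A1, CSNK1D and CSNK1E of the same list were not called (log2 fold changes 0.07, 0, 0.06 and -0.05), and their groups overlapped.

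Of 21 genes described as GLI targets in various tissues, 13 were tested, and 4 were higher, 4 lower and 5 not called (median log2 fold change 0). The share called was 61.5%, against 72.9% of all genes tested. SOX9, a transcription factor of cartilage, rose from 8.99 ± 0.959 to 58.5 ± 6.1 CPM (SD, n = 3; log2 fold change 2.70, adjusted p = 1.1e-12). SFRP1, a secreted WNT antagonist, rose from 41.5 ± 1.08 to 129 ± 4.78 CPM (log2 fold change 1.63, adjusted p = 1.1e-12), and PTHLH, a hormone-like peptide of bone and breast, from 8.95 ± 0.0537 to 25.3 ± 0.421 CPM (log2 fold change 1.5, adjusted p = 3.3e-10). Those that fell, other than JAG2, were named after their values were seen: the cyclin CCND1 from 770 ± 8.25 to 295 ± 15.7 CPM, the growth factor BMP4 from 66.3 ± 6.28 to 27.1 ± 3.44 CPM and the receptor PDGFRA from 11.3 ± 1.77 to 5.79 ± 0.2 CPM (log2 fold changes -1.39, -1.29 and -0.97, adjusted p = 2.2e-12, 2.6e-09 and 8.2e-06). All adjusted p-values are from edgeR's quasi-likelihood test over all genes tested.

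**Figure D3:**
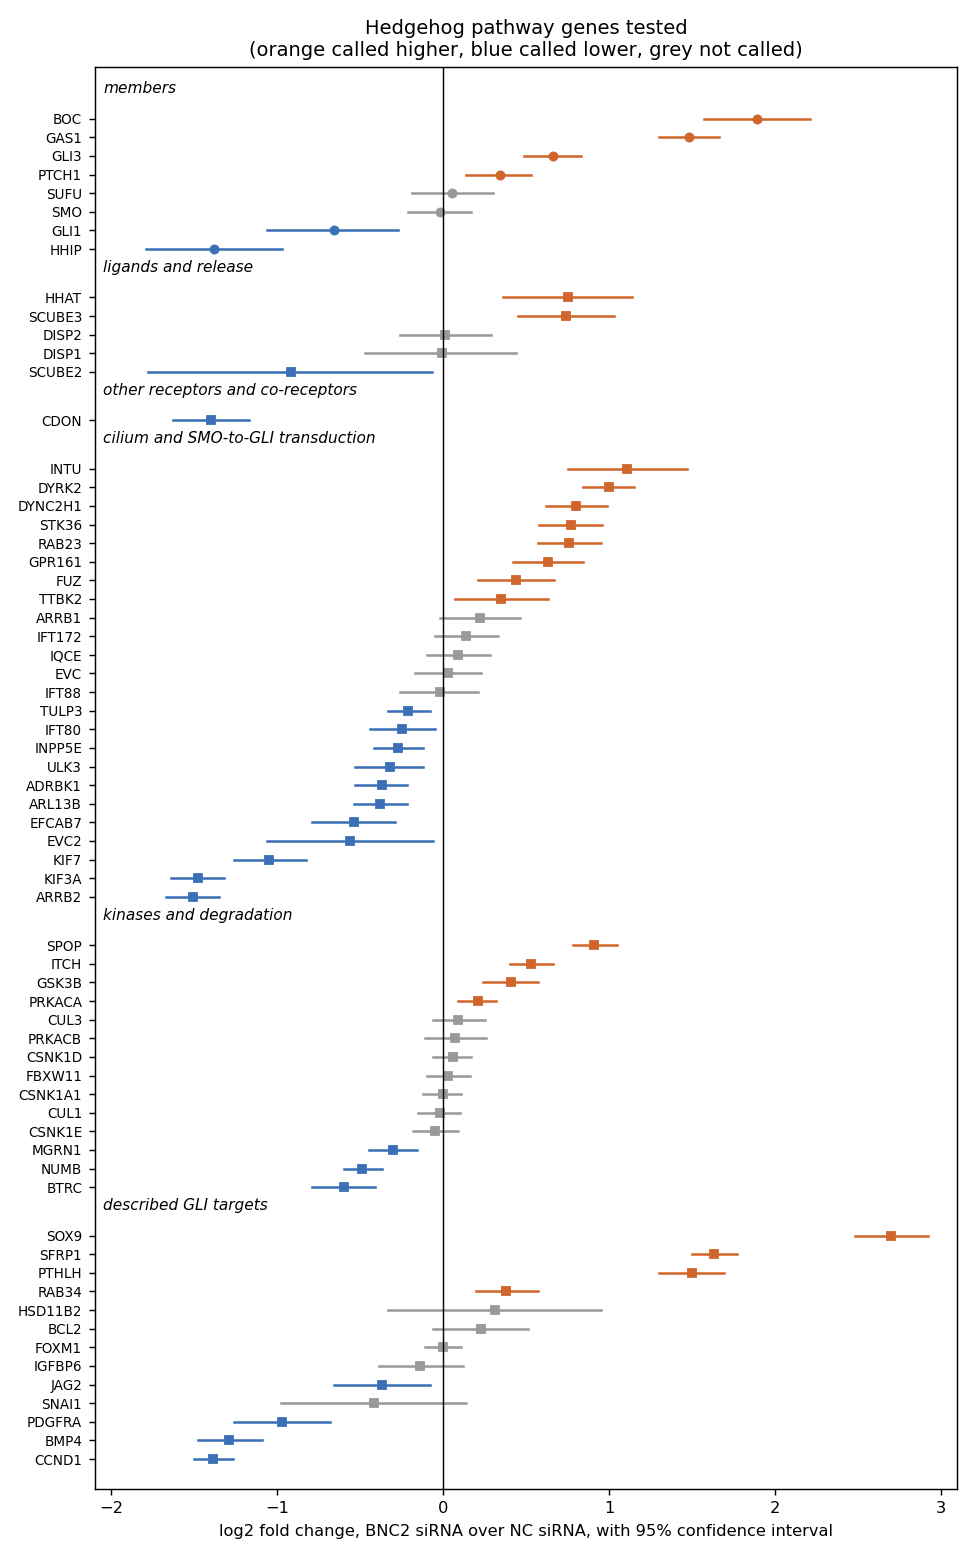
Log2 fold change of BNC2 siRNA over NC siRNA with its 95% confidence interval for the 8 tested Hedgehog receptors and GLI factors (circles, headed members) and 57 of the 58 tested genes of the 5 pathway lists (squares), each block in order of the change. Orange marks genes called higher, blue called lower and grey not called; BOC at 1.89 and HHIP at -1.38 are the extremes of the 8.

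The gene of the set with the largest change, BOC, was compared with every gene tested by the correlation of log2(CPM + 0.5) over the 6 libraries. Most alike were HSPA13 (Pearson r = 0.9997, log2 fold change 0.69), KHNYN (r = 0.9997, log2 fold change 1.6) and SGPL1 (r = 0.9996, log2 fold change 0.92). The 6 points fall into 2 groups of libraries, so any gene that separates them without much spread scores high, and 613 genes had an r over 0.99. This likeness is a description of the libraries.

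The directions of the 6 called genes were the same in each of 14 other ways of processing, and 4 were called higher and 2 lower in every one. Since 72.9% of all genes tested were called under the main processing, nothing is read from this steady count. Over these, the log2 fold change lay between -1.55 and -1.27 for HHIP, 0.26 and 0.38 for PTCH1, 1.39 and 1.52 for GAS1, 1.78 and 1.93 for BOC, -0.84 and -0.54 for GLI1, and 0.58 and 0.71 for GLI3.

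**Figure D4:**
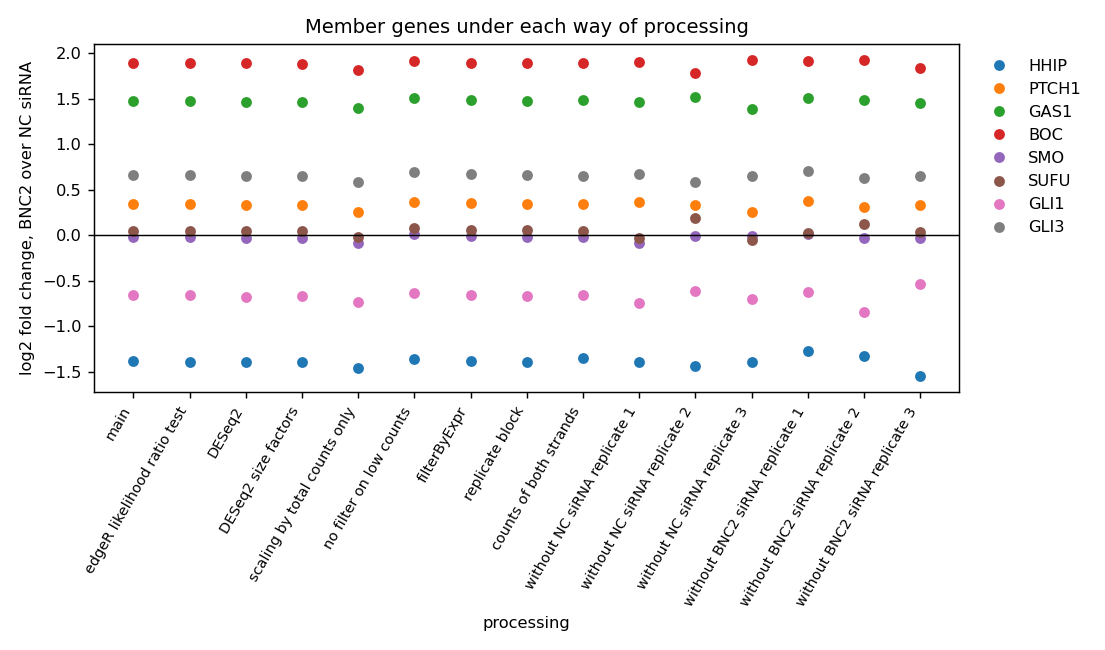
Log2 fold change of each of the 8 tested genes (points, coloured by gene) under the main processing and 14 alternatives on the horizontal axis. SMO stays between -0.09 and 0.01 and SUFU between -0.05 and 0.19, on both sides of 0, while the other 6 keep their side.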

How the data were processed

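RNA-seq counts of 6 BT549 libraries, 3 NC siRNA and 3 BNC2 siRNA by the sample titles, were used. The authors selected poly(A) RNA, sequenced single-end reads and aligned them with STAR 2.6.1d (version per the submitters' processing notes) to hg19 with the iGenomes UCSC annotation. The counts deposited by the authors are uniquely mapped reads per gene, not normalised. In all 23346 genes the table of the series equalled the reverse-strand column of the library tables, so reads from the opposite strand are left out. Reads assigned to no gene (37.7% to 41.1%) were left out of library sizes. The labels and the methods name different transfection reagents.

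Genes over 1 CPM in at least 3 libraries were kept (12186), scaled with TMM (factors 0.972 to 1.04) and tested with edgeR 4.0.16 (R 4.3.3, limma 3.58.1) by its quasi-likelihood test, without a block, with Benjamini-Hochberg adjustment over all tested genes and a threshold of 0.05. The standard error is the log2 fold change over the square root of F, and 95% intervals use the t distribution with edgeR's degrees of freedom. The common biological coefficient of variation was 6.16%. An exact permutation test of 3 against 3 libraries cannot give a p below 0.1 and was not used. The scripts were tested on simulated data.

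The members and lists were chosen with earlier results of these data known. Named were BNC2, the 9 genes, the 3 called genes per pathway list with the largest absolute change and at least 5 CPM in the higher group, and the 3 genes most alike to the member with the largest change; other names were added after their values were seen, and results of some single genes of the lists are not reported. Other settings tried were the study's own test (edgeR's likelihood ratio), DESeq2 1.42.0, its size factors, total counts, no filter, filterByExpr, counts of both strands, a replicate block, each library left out, and transcript length. Gene positions and lengths are from GENCODE 44 on GRCh37 (the assembly of hg19), promoters from RefSeq on GRCh38.p14. Python 3.11.15 with pandas 2.3.3, numpy 2.4.6 and matplotlib 3.10.9 was used for levels, promoters and plots.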

Additional observations from a re-analysis of the deposited data

Results flagged for a closer look

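Reads on the strand opposite GAS1, which the comparisons leave out, numbered 0, 1 and 4 with NC siRNA and 5, 5 and 7 with BNC2 siRNA, where their sum was 17. They stood out as a signal outside the main measurement that was above its level in the control libraries. They equal 0.658% of the reads counted for GAS1 over all libraries. GAS1 itself was also higher with BNC2 siRNA, with 904 reads in all with NC siRNA and 2442 with BNC2 siRNA. With so few reads the difference was not tested.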

How the results depend on the processing

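Over the 14 alternatives, the number of the Hedgehog receptors and GLI factors called stayed at 4 higher and 2 lower, that of the pathway lists at 17 to 19 higher and 16 to 20 lower, and BNC2's log2 fold change between -0.73 and -0.57. Over all genes, the calls ranged from 8084 of 11842 tested (second NC siRNA library left out) to 9662 of 18121 (no filter). Nothing particular to the 9 genes is therefore read from their steady count. Of the 8 tested receptors and GLI factors, SMO and SUFU, which were not called, reversed in direction: SUFU was at -0.02 with scaling by total counts only and between -0.05 and 0.19 with 1 library left out, and SMO at 0.01 without a filter and between -0.09 and 0.01 with 1 library left out; the cause was not tested. SCUBE2 was not called with DESeq2 (-0.93, adjusted p = 0.08) or filterByExpr (-0.92, adjusted p = 0.051), and without any 1 of the 3 NC siRNA libraries it failed the filter. With the longest transcript as length, the GLI3 share in NC siRNA libraries was 70.4% in place of 62.5%, and 85.7% in place of 80.7% with BNC2 siRNA, by the construction of the length; NC siRNA levels per kilobase moved by more than 1 SD for all of the 9 genes but GAS1, whose 2 lengths are equal, and GLI2. Among the co-receptors, the share of GAS1 was then 65.0% and 85.6% (NC siRNA and BNC2 siRNA), of CDON 29.8% and 5.33%, and of BOC 5.2% and 9.06%. Same-numbered libraries did not deviate together (correlations -0.256, -0.0908 and -0.151). With 3 libraries per group, each taken against its group mean, these correlations cannot exclude that the numbers pair samples. A replicate block gave 4 higher and 2 lower and 8399 calls over all genes against 8879. Without a filter, 9662 of 18121 genes were called, and GLI2 had a log2 fold change of 0.44 (adjusted p = 0.8). Depth limits GLI2 and the ligands, and the errors of HHIP, GLI1 and BOC are wider than those of GAS1 and GLI3, which have more reads.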
